A study of Sus scrofa with 12 samples.

Results

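The genes described here build and run the DNA replication machinery: the origin recognition complex (ORC), the factors that load the MCM helicase, the helicase itself and its activators, the replicative polymerases with primase, the sliding clamp and its loader, the single-strand binding protein RPA, and the enzymes that finish the lagging strand. They were chosen by gene symbol and known role, with earlier results of these data known. Of 50 symbols listed, 47 named a row of the count table, which holds 29329 genes. All 47 passed the filter on low counts, as did 17995 genes of the whole table. MCM5 was not analysed here. The rows of MCM9 and DBF4 carry an Ensembl identifier without a symbol, so they lie outside the 47 and are given apart.

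SMART-seq was run on porcine embryos made by in vitro fertilisation. The method copies polyadenylated RNA into full-length cDNA and amplifies it before sequencing. The 12 libraries form 4 groups of 3, named after their titles: con-2c and con-4c (control), si-2c and si-4c (knockdown). The con libraries are labelled as a blank control, and the si libraries come from embryos given a short interfering RNA against CCNB2, a mitotic cyclin, by injection after fertilisation. Each library pooled several embryos. The labels do not name separate fertilisation runs, so the p-values measure the spread between these pools. The study calls its controls normal embryos and also the Si-CCNB2 NC group. Its methods describe injected negative controls, but the label of these libraries names none, so whether these controls were injected is unclear. The title and the tissue label give opposite stages in all 12 libraries: those titled 2c carry a 4-cell tissue label and those titled 4c a 2-cell one. The group names therefore stand for the titles. A level in a pool is relative to the other RNA of that pool, and fewer cells and less RNA per cell cannot be told apart.

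Replication starts at origins bound by ORC. CDC6 and CDT1 then load the ring of MCM2 to MCM7 onto DNA, a step called licensing that geminin (GMNN) blocks by holding CDT1, so that an origin fires only once in a cell cycle. The kinase CDC7 with DBF4, and factors such as MCM10, CDC45 and the GINS complex, turn the loaded ring into a moving helicase. Early embryos cleave quickly with little growth, and they live at first on maternal mRNA and protein stored in the oocyte, including replication factors.

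The perturbation that defines the si groups is shown by the siRNAs that the supplement of the study lists against CCNB2. They are printed as listed, where no direction is stated, and the sources used here do not say which of them was injected for these libraries.
Si-CCNB2-1: gcagguccacuccaaguuu (19 bases)
Si-CCNB2-2: gcuuauaccaguucccaaa (19 bases)

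CCNB2 itself followed the treatment label. Its level, in CPM (counts scaled by library size and TMM factor), was 464 ± 21.7 (SD, n = 3, as for every mean below) in con-2c and 475 ± 41.9 for con-4c, against 22.7 ± 5.58 for si-2c and 42.6 ± 3.65 for si-4c. This checks con against si and says nothing of the stage. Library totals lay between 27785233 and 39510908 counts. Within si-2c, replicate 3 stood apart: the chi-square per degree of freedom between it and its fellow libraries reached 42.7, against a lowest value of 7.22 among replicate pairs. For that reason results that involve si-2c are also given without its replicate 3 where it matters. Of the 36 replication genes with a mean of at least 10 CPM, 21 were highest in si-2c replicate 3 within that group. Counts of this kind were nearly as large for con-2c replicate 1 (18), con-4c replicate 2 (17) and si-4c replicate 1 (18). In con-2c, replicate 3 also differed, with chi-square values of 24.2 and 29.5 against 14.5 for the other pair. It had the lowest PCNA level of con-2c. Over all genes tested, the mean Pearson correlation of log2 CPM between a library and those of a group, as a description, was 0.963 to 0.964 for si-4c libraries with con-2c and 0.888 to 0.889 with con-4c, and for si-2c libraries 0.949 with con-4c and 0.921 to 0.923 with con-2c. The si libraries are thus nearer to the controls of the other title, and whether a title names the same stage in si and con libraries is in doubt. Every knockdown and si stage contrast here compares libraries by title and carries that doubt. Of 10 oocyte and early embryo markers, 8 are in the table and none was at 0 in a whole group, with summed levels of 5088 to 5278 CPM for con-2c, 3530 to 3546 for con-4c, 3711 to 3951 for si-2c and 4750 to 4932 for si-4c. Of 15 cumulus or granulosa markers, 10 are in the table, and their sum was 294 to 371, 179 to 191, 173 to 202 and 294 to 304 CPM in the same order. Nearly all of it was VCAN. CYP11A1 had at most 2 counts and HAS2 at most 4 in any library, while COL1A2 reached 174, TNFAIP6 79, STAR 74 and COL3A1 67. COL3A1, at 0, 1.69, 1.04 and 0 CPM in the same order, and TNFAIP6 ran against the sum. Both sums move with the groups as several replication genes do, and their part in the results was not tested. Single oocyte markers differed. OOEP followed the sum (1338, 371, 440 and 1027 CPM in the same order), KPNA7 was nearly level (1040, 1014, 976 and 1123), and BMP15 ran otherwise (887, 985, 1228 and 1046).

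The main contrasts are the control stage contrast (con-4c less con-2c), the 2c knockdown contrast (si-2c less con-2c), the 4c knockdown contrast (si-4c less con-4c) and the si stage contrast (si-4c less si-2c). In the control stage contrast, PCNA, geminin, ORC5, POLE2 and RPA2 were lower and ORC1, MCM8 and RFC5 were higher, while most of the MCM ring was level. A gene is said to have risen or fallen when its edgeR adjusted p, taken over all 17995 genes, was below 0.05, and it is called when its absolute log2 fold change was also at least 1. By that rule 3 of the 47 genes were called higher and 5 lower, where 14.4% and 3.25% of all genes tested were called. With adjusted p alone, 8 rose and 18 fell, where 20.7% and 15.1% of all genes did. The replication genes are more abundant than most (median 45.4 CPM against 2.81 for all genes tested), and the share of genes that pass is larger among abundant ones. Among genes of at least 10 CPM, 6 of 36 replication genes rose and 17 fell, beside 21.8% and 34.5% of all 6090 such genes. The median log2 fold change was -0.09 for the replication genes and 0.11 for all genes.

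In the 2c knockdown contrast, ORC5, POLE2 and PCNA were called lower and none was called higher. That is 0 higher and 3 lower of 47, beside 10.7% and 1.8% of all genes. At an unadjusted p below 0.05 the edgeR test gave 7 higher and 22 lower, and DESeq2 called 0 higher and 3 lower. Counts at an unadjusted p or by DESeq2, here and below, have no share of all genes beside them. They are no result particular to replication genes. With adjusted p alone 6 rose and 18 fell, where 16.6% and 12.3% of all genes did. MCM8 rose by 0.91 (SE 0.27, adjusted p = 0.0180) and was called higher without con-2c replicate 1 (1.25) or si-2c replicate 1 (1.01). Among genes of at least 10 CPM, 5 of 36 rose and 18 fell, beside 18.6% and 30.9% of all such genes. The 4c knockdown contrast had other signs: ORC5, GMNN, GINS1, PCNA and RPA2 were called higher and ORC1, MCM8 and RFC5 lower. These are 5 and 3 genes, beside 3.12% and 15.8% of all genes. With adjusted p alone 18 rose and 8 fell, beside 15.1% and 21.7%, and among genes of at least 10 CPM 17 and 7 of 36, beside 35.6% and 20.5%. The comparison shares the con-4c libraries with the control stage contrast, so the mirrored lists are not independent of each other. The 2c knockdown contrast shares the con-2c libraries with the control stage contrast, so like differences in that pair are not independent either.

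These splits depend on how libraries are scaled. TMM factors ran from 0.852 to 1.21 and were lowest in con-2c and si-4c. Without them, dividing by library totals alone, the median of all genes moved from 0.11 to 0.38 in the control stage contrast and from 0.12 to 0.52 in the 2c knockdown contrast. The median of the replication genes moved from -0.09 to 0.14 and from -0.24 to 0.16. Relative to all genes it stayed at -0.20 and -0.24 in the former comparison, and at -0.37 and -0.36 in the latter. The calls became 3 higher and 0 lower in the control stage contrast, 1 higher and 0 lower in the 2c knockdown contrast, and 0 higher and 3 lower in the 4c knockdown contrast. By adjusted p alone 14 then rose and 12 fell in the control stage contrast, 15 rose and 8 fell in the 2c knockdown contrast, and 13 rose and 11 fell in the 4c one, so the excess of falls in the former pair does not hold under this scaling. The shares of all genes with library totals are not given, here or below. Counts with library totals are thus no result particular to replication genes. No gene that rose or fell in the control stage contrast or in the 4c knockdown contrast turned its sign with library totals, and 20 and 21 of the 26 in each still passed. Those that no longer passed were ORC3, MCM2, RPA1, RPA3, GINS4 and POLE4 in the former contrast, and WDHD1, MCM2, RPA1, RFC2 and POLE4 in the latter. The 2c knockdown contrast held up less well: 14 of its 24 still passed, POLA1, RPA1 and RPA3 turned their sign, and ORC3, MCM3, GINS2, GINS4, PRIM1, PRIM2 and POLE3 no longer passed. Genes that passed with library totals alone were ORC4, CDC6, TOPBP1, POLA1, POLE and RFC1 in the control stage contrast, ORC2, ORC4, CDC6, MCM6, TOPBP1, POLE, POLE4, RFC1 and FEN1 in the 2c knockdown contrast, and CDC6, MCM3 and FEN1 in the 4c one.

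**Figure D1:**
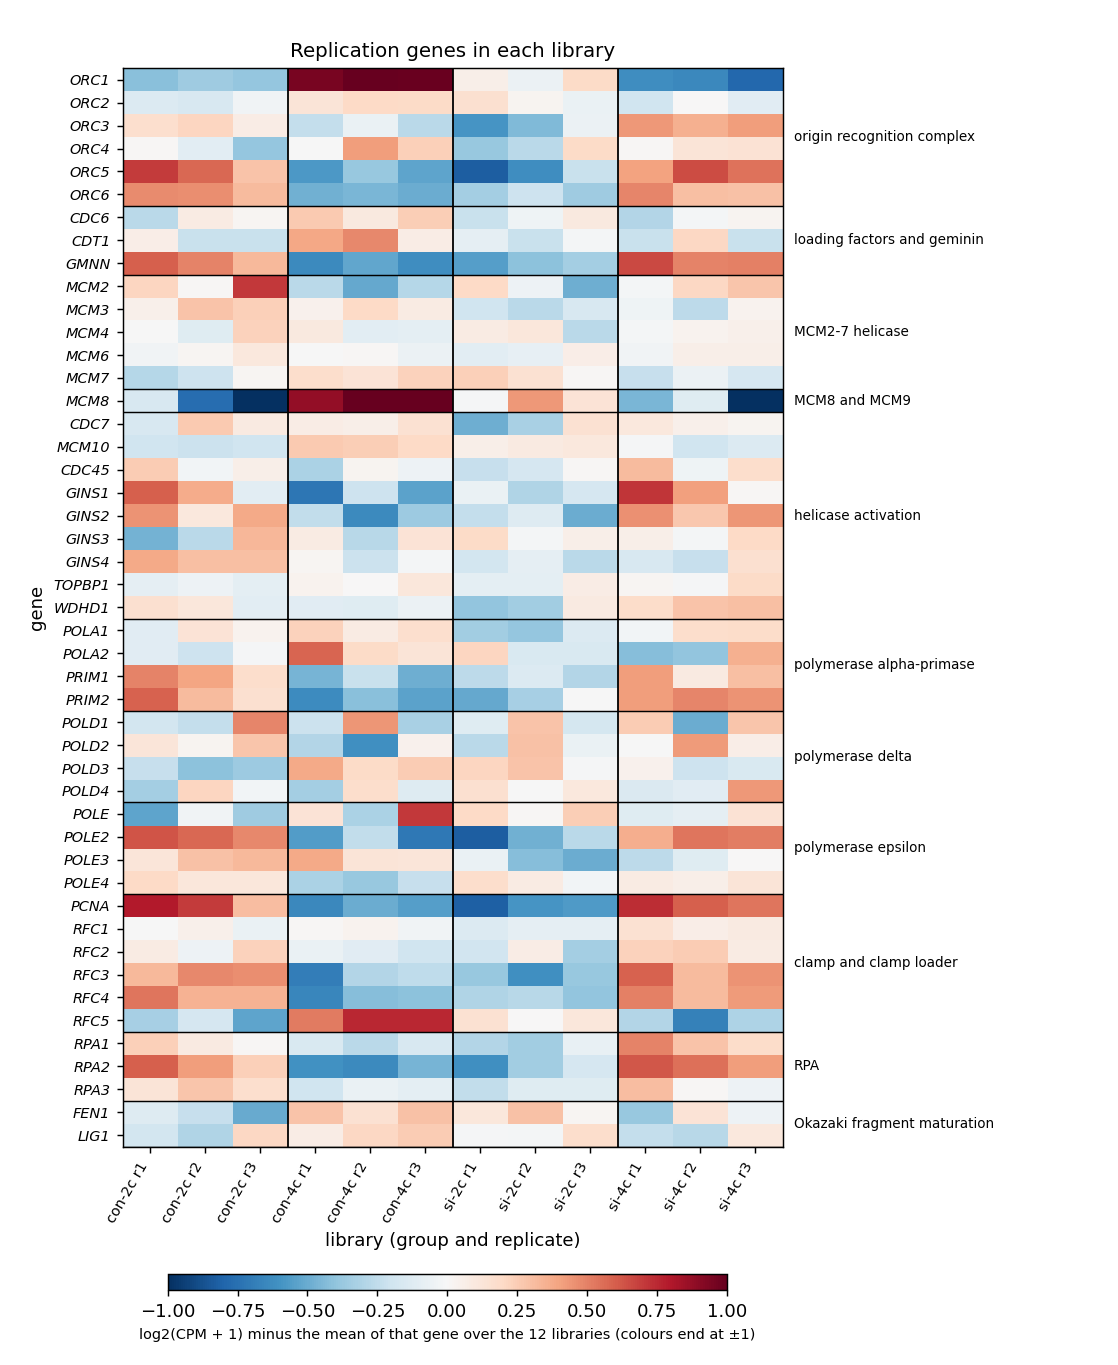
Level of the 47 replication genes (rows, grouped by role) in each of the 12 libraries (columns), as log2(CPM + 1) minus the mean of that gene over the 12 libraries; red is above and blue below that mean, and colours end at 1 on either side. PCNA, GMNN, ORC5, ORC6 and RPA2 are high in con-2c and si-4c and low in con-4c and si-2c, ORC1, MCM8 and RFC5 are highest in con-4c, and MCM4, MCM6 and RFC1 stay near the middle.

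ORC subunits did not move together. ORC1 is the subunit with the main ATPase activity (Sscrofa11.1, chr6:159819302-159852306, RefSeq). It measured 30.3, 31.7 and 31.0 CPM in the con-2c libraries, 79.7, 86.3 and 81.9 for con-4c, 42.5, 39.2 and 46.6 for si-2c, and 26.2, 25.7 and 23.2 for si-4c. All 4 groups are free of overlap, with con-4c highest, si-2c next, then con-2c and si-4c. ORC1 was higher in con-4c than in con-2c by 1.42 on the log2 scale (SE 0.09, edgeR adjusted p = 2.47e-09), and in the 4c knockdown contrast it fell by 1.72 (SE 0.09, adjusted p = 2.11e-10). Between si-2c and con-2c it rose by 0.47 (SE 0.09, adjusted p = 0.000798).

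ORC5 (chr9:104078792-104166530), which binds ORC4 in the body of the complex, ran the other way. Its libraries gave 163, 149 and 122 CPM for con-2c, 66.8, 76.6 and 69.1 for con-4c, 56.1, 64.6 and 85.7 for si-2c, and 133, 158 and 146 for si-4c. Every con-2c and si-4c library lies above every con-4c and si-2c library. The log2 fold change was -1.03 (SE 0.14, edgeR adjusted p = 1.38e-05) in the control stage contrast, -1.08 (SE 0.14, adjusted p = 1.31e-05) in the 2c knockdown contrast and 1.04 (SE 0.14, adjusted p = 1.31e-05) in the 4c knockdown contrast. It sits near the 2-fold limit, and leaving out con-2c replicate 1 brings the value of the control stage contrast to -0.94. ORC6, a peripheral subunit needed for helicase loading, fell from 748 ± 45.5 CPM for con-2c to 401 ± 5.86 for con-4c and was 454 ± 25.1 for si-2c and 721 ± 56.9 for si-4c, without overlap between the high and the low pair of groups. Its fall of 0.90 in the control stage contrast (SE 0.08, adjusted p = 1.06e-07) is short of 2-fold.

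ORC3 fell by 0.34 in the control stage contrast (SE 0.11, edgeR adjusted p = 0.0217) and by 0.50 in the 2c knockdown contrast (SE 0.11, adjusted p = 0.00222). Its si-2c libraries were 104, 116 and 151 CPM, and without replicate 3 the latter difference was -0.68. With library totals the differences were -0.07 (adjusted p = 0.685) and -0.10 (adjusted p = 0.539). ORC2 rose by 0.29 in the control stage contrast (SE 0.08, adjusted p = 0.0125), and ORC4 missed the threshold (0.39, SE 0.15, adjusted p = 0.0601), but passed with library totals (0.67, adjusted p = 0.00307) and with DESeq2 (0.42, adjusted p = 0.0398). Thus with TMM factors and edgeR 2 of 6 ORC genes rose and 3 fell in that comparison, and ORC1 and ORC5 parted in opposite directions by more than 2-fold each.

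Among the loading factors, geminin was the 1 gene that passed with TMM factors. GMNN (chr7:19585968-19595346) gave 387, 362 and 321 CPM for con-2c, 165, 178 and 166 for con-4c, 175, 193 and 201 for si-2c, and 405, 361 and 363 for si-4c. The lowest con-2c or si-4c library has 321 CPM and no other library exceeds 201. Its log2 fold change was -1.08 (SE 0.09, edgeR adjusted p = 4.56e-08) in the control stage contrast, -0.91 (SE 0.09, adjusted p = 5.45e-07) in the 2c knockdown contrast and 1.15 (SE 0.09, adjusted p = 2.00e-08) in the 4c knockdown contrast. Values in group order run con-2c, con-4c, si-2c, si-4c. CDC6, the ATPase that closes the ring around DNA with ORC, was 42.9 ± 5.52, 51.2 ± 3.26, 42.8 ± 4.82 and 41.7 ± 4.96 CPM in group order. None of its differences passed with TMM factors, with 0.25 (SE 0.12, adjusted p = 0.109) in the control stage contrast, where library totals gave 0.52 (adjusted p = 0.00694). CDT1, the target of geminin, was barely sampled. It had 7, 0 and 0 counts for con-2c, 16, 19 and 7 for con-4c, 4, 0 and 7 for si-2c, and 0, 12 and 0 for si-4c, too few to show a difference at this depth (adjusted p = 0.291 in the control stage contrast).

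Most of the MCM ring was level with TMM factors. MCM6 libraries lay between 120 and 140 CPM in all 12 pools, with differences of -0.05 (SE 0.08), -0.07 (SE 0.08) and 0.05 (SE 0.08) in the control stage contrast, the 2c knockdown contrast and the 4c knockdown contrast. MCM4 was 40.4 ± 5.22, 38.3 ± 3.21, 38.8 ± 5.58 and 39.9 ± 1.01 CPM in group order. With TMM factors no difference of MCM4 or MCM6 passed in any comparison made, but with library totals MCM6 moved to 0.22, 0.32 and -0.21 in these contrasts, near the shift of all genes, and the middle one passed (adjusted p = 0.0158). With TMM factors MCM3 passed once, in the 2c knockdown contrast, where it fell by 0.41 (SE 0.10, edgeR adjusted p = 0.00457). With library totals that difference was -0.02 (adjusted p = 0.935), and MCM3 fell instead in the 4c knockdown contrast, by 0.46 (adjusted p = 0.00488).

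MCM7 and MCM2 moved a little and in opposite directions. MCM7 was 55.7, 58.9 and 69.0 CPM for con-2c and 77.0, 75.0 and 79.9 for con-4c, free of overlap, and rose by 0.34 (SE 0.09, edgeR adjusted p = 0.0101). MCM2 was 22.9, 19.9 and 32.8 CPM for con-2c against 16.1, 13.5 and 16 for con-4c, also without overlap, and fell by 0.73 (SE 0.19, adjusted p = 0.00622; with library totals -0.47, adjusted p = 0.0947). Replicate 3 of con-2c is the high one there. With TMM factors, the low-count filter and all libraries no gene of the ring was called in any comparison. In the interaction described below, MCM2 stood at 0.99 (adjusted p = 0.00598) and was called, at 1.02 to 1.18, in 7 of the fits that left out 1 library, and MCM7 was called at -1.27 (adjusted p = 7.21e-06) with library totals.

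MCM8, a relative of the ring that acts with MCM9 in recombination repair, was unlike it. MCM8 (chr17:14790398-14837420) gave 7.61, 4.66 and 3.78 CPM for con-2c, 16.8, 19.2 and 20.4 for con-4c, 8.55, 12 and 9.57 for si-2c, and 6.0, 7.84 and 3.37 for si-4c. The con-4c libraries stand above all others, and the si-2c libraries above those of con-2c and si-4c. It was higher in con-4c than in con-2c by 1.81 (SE 0.27, edgeR adjusted p = 5.74e-05), and in the 4c knockdown contrast it fell by 1.71 (SE 0.27, adjusted p = 9.75e-05). The row that the gene name table pairs with MCM9 (ENSSSCG00000004246) had 5.27 ± 1.60 CPM for con-2c, 12.2 ± 1.33 for con-4c, 8.59 ± 1.02 for si-2c and 5.03 ± 0.603 for si-4c. Its difference was 1.21 (SE 0.20, adjusted p = 0.000151) in the control stage contrast and -1.28 (SE 0.20, adjusted p = 9.08e-05) in the 4c knockdown contrast.

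**Figure D2:**
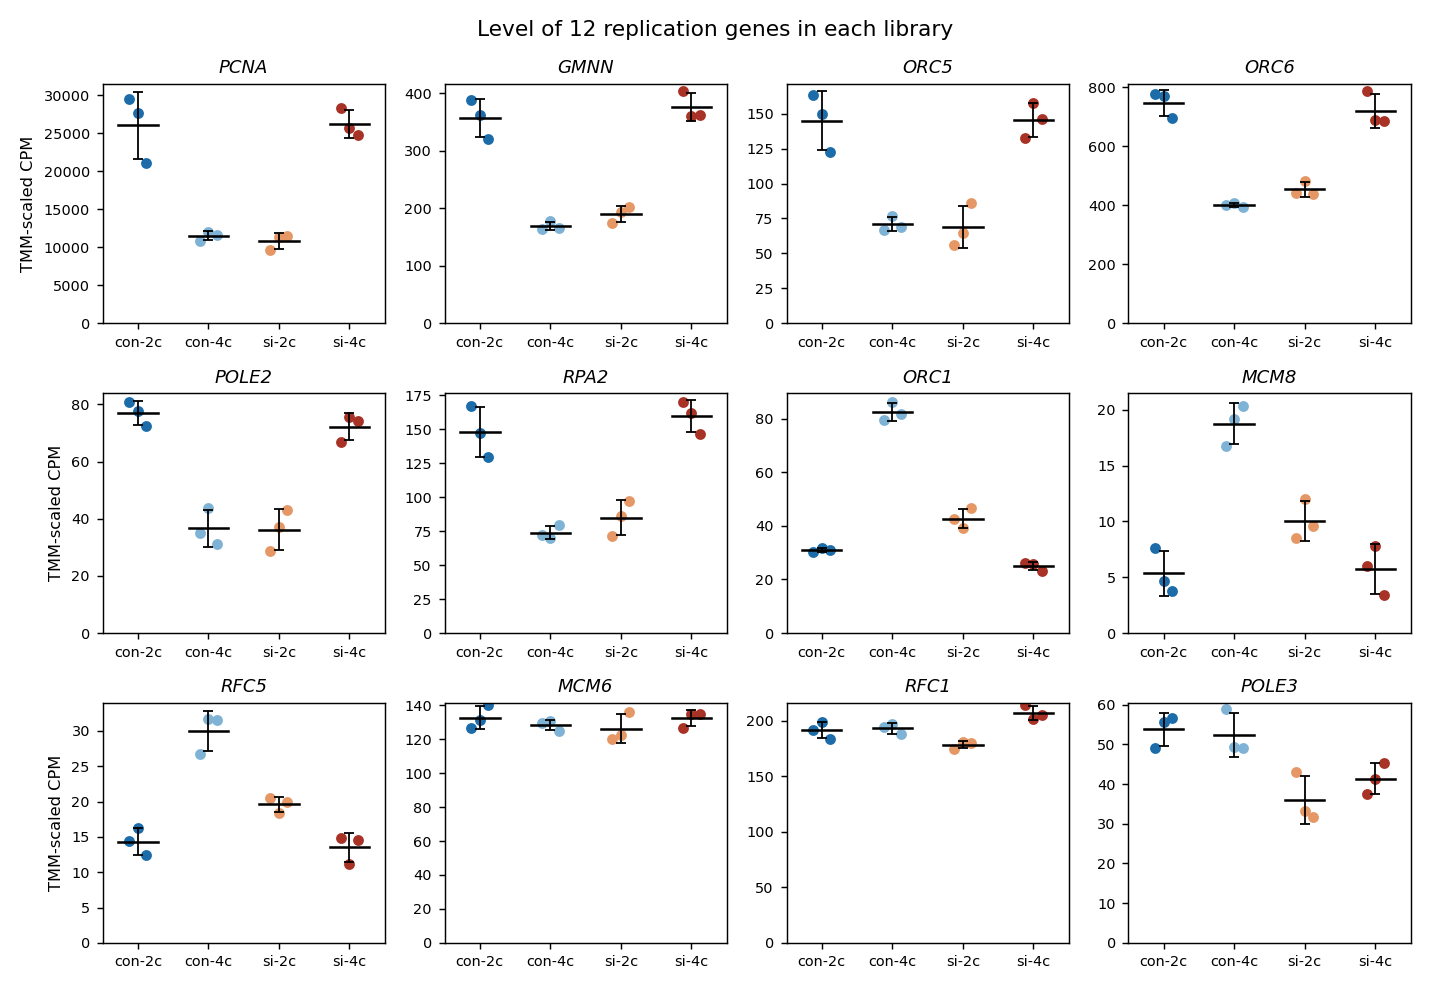
Level in TMM-scaled CPM of 12 replication genes in each library (points), with the group mean (bar) and SD (error bars, n = 3), on axes that start at 0. PCNA, GMNN, ORC5, ORC6, POLE2 and RPA2 are high in con-2c and si-4c, ORC1, MCM8 and RFC5 are highest in con-4c with si-2c next, MCM6 and RFC1 vary little, and POLE3 is lower in the si groups than in their title-matched controls.

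Helicase activators were mixed. MCM10, which helps the ring to open and holds polymerase alpha, was 445, 440 and 445 CPM for con-2c, 615, 608 and 589 for con-4c, 532, 546 and 551 for si-2c, and 509, 446 and 467 for si-4c. It rose by 0.45 in the control stage contrast (SE 0.07, edgeR adjusted p = 6.58e-05) and by 0.29 in the 2c knockdown contrast (SE 0.07, adjusted p = 0.00372), and its con-2c libraries lie below all others, though 1 si-4c library is nearly level with them. The GINS subunits split. GINS2 was 33.0 ± 4.12 CPM for con-2c, 19.6 ± 2.80 for con-4c, 21.4 ± 2.86 for si-2c and 34.7 ± 2.52 for si-4c, and fell by 0.75 in the control stage contrast (SE 0.14, adjusted p = 0.000305).

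GINS1 had 129 to 223 counts a library for con-2c, 68 to 110 for con-4c, 125 to 175 for si-2c and 147 to 260 for si-4c. Its difference was -0.98 (SE 0.27, edgeR adjusted p = 0.00905) in the control stage contrast and 1.09 (SE 0.27, adjusted p = 0.00437) in the 4c knockdown contrast. GINS4 fell by 0.41 in the control stage contrast (SE 0.12, adjusted p = 0.0135) and by 0.53 in the 2c knockdown contrast (SE 0.12, adjusted p = 0.00291), and it was 22.3 ± 3.48 CPM for si-4c against 29.6 ± 0.947 for con-2c. With library totals both differences of GINS4 were -0.13 (adjusted p = 0.471 and 0.466). GINS3 ranged from 3.91 to 7.62 CPM over the 12 libraries, and none of its differences passed.

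CDC45, which rides with MCM and GINS in the active helicase, ranged from 10.1 to 16.2 CPM over the 12 libraries, and no difference passed with all libraries. TOPBP1, a scaffold for helicase activation and checkpoint signalling, and the kinase CDC7 did not pass with TMM factors and all libraries. With library totals TOPBP1 rose by 0.40 (adjusted p = 0.00237) in the control stage contrast and by 0.44 (adjusted p = 0.00133) in the 2c knockdown contrast. CDC7 was 29.0, 32.7 and 45.9 CPM for si-2c, the last in the replicate that stands apart, and 42.9 ± 1.21 for si-4c. Its 2c knockdown contrast was -0.28 (SE 0.14, edgeR adjusted p = 0.165) with all libraries and -0.50 (adjusted p = 0.00454) without that replicate. The row paired with DBF4 (ENSSSCG00000020870), the partner of CDC7, fell from 25.7 ± 0.627 CPM for con-2c to 16.6 ± 2.53 for con-4c (-0.63, SE 0.12, edgeR adjusted p = 0.000442), with a 4c knockdown contrast of 0.98 (SE 0.12, adjusted p = 4.90e-06). WDHD1, which couples helicase and polymerase alpha, was 425, 439 and 597 CPM for si-2c. Against con-2c it differed by -0.26 (SE 0.11, adjusted p = 0.0866) with all libraries and by -0.44 (adjusted p = 0.000692) without si-2c replicate 3.

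Of polymerase alpha-primase, which lays the RNA-DNA primers, the primase subunits fell while the catalytic subunit did not in the control stage contrast. PRIM1 went from 45.8, 42.8 and 36.6 CPM for con-2c to 23.1, 27.4 and 22.7 for con-4c (-0.77, SE 0.12, edgeR adjusted p = 6.32e-05). PRIM2 went from 119, 98.3 and 88.3 to 50.6, 58.9 and 54.2 (-0.90, SE 0.12, adjusted p = 2.32e-05). Neither overlaps between the groups. In si-4c they were 39.2 ± 4.56 and 108 ± 2.90 CPM, higher than in con-4c by 0.68 (SE 0.12, adjusted p = 0.000213) and 0.99 (SE 0.13, adjusted p = 8.58e-06).

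POLA1 was 55.8 ± 5.01 CPM for con-2c, 61.4 ± 3.13 for con-4c, 44.8 ± 4.29 for si-2c and 59.4 ± 4.83 for si-4c. The lowest mean is that of si-2c, with differences of -0.32 from con-2c (SE 0.10, edgeR adjusted p = 0.0234) and -0.46 from con-4c (SE 0.10, adjusted p = 0.00814). With library totals the former difference turned its sign and the latter no longer passed (-0.33, adjusted p = 0.107). POLA2 had 21 to 69 counts a library, and no difference passed with all libraries. Without si-4c replicate 3 its 4c knockdown contrast moved from -0.74 (adjusted p = 0.219) to -1.40 (adjusted p = 0.0314).

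Polymerase delta, the lagging-strand enzyme, was sampled mainly through POLD3. This accessory subunit gave 627, 554 and 573 CPM for con-2c, 959, 842 and 875 for con-4c, 853, 897 and 730 for si-2c, and 759, 637 and 661 for si-4c. It rose by 0.61 in the control stage contrast (SE 0.09, edgeR adjusted p = 6.22e-05) and by 0.50 in the 2c knockdown contrast (SE 0.09, adjusted p = 0.000569), each without overlap. The catalytic subunit POLD1 had 20 to 69 counts a library, POLD2 33 to 114 and POLD4 0 to 24, and none of them passed in any comparison. Differences of the size seen for POLD3 would not be detectable at that depth for POLD1, whose SE was 0.52. Transcript lengths were not used here, so levels of different subunits are not compared.

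Polymerase epsilon, the leading-strand enzyme, held 3 patterns in 4 subunits. POLE2 (chr1:179495278-179529891), which anchors the enzyme to the helicase, gave 80.9, 77.6 and 72.6 CPM for con-2c, 34.9, 43.6 and 31.3 for con-4c, 28.8, 37.0 and 42.9 for si-2c, and 66.9, 75.5 and 74.2 for si-4c. It was called lower in the control stage contrast (-1.07, SE 0.14, edgeR adjusted p = 8.70e-06) and in the 2c knockdown contrast (-1.09, SE 0.14, adjusted p = 1.10e-05), with no overlap in either.

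The histone-fold subunit POLE3, also part of a chromatin remodeller, was lower in both si groups than in the controls of the same title with TMM factors. Its libraries were 49.0, 55.5 and 56.8 CPM for con-2c, 58.9, 49.3 and 49.1 for con-4c, 43.0, 33.3 and 31.7 for si-2c, and 37.5, 41.4 and 45.2 for si-4c. Every si library is below every con library. POLE3 fell by 0.58 in the 2c knockdown contrast (SE 0.12, edgeR adjusted p = 0.00164) and by 0.34 in the 4c knockdown contrast (SE 0.12, adjusted p = 0.0368), and differed by -0.04 (SE 0.12) between the con groups. With library totals these differences were -0.19 (adjusted p = 0.331), -0.60 (adjusted p = 0.00311) and 0.23 (adjusted p = 0.217). It was singled out after its values were seen, as the gene that stands against its complex.

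POLE4, the histone-fold partner of POLE3, was 132 ± 4.72 CPM for con-2c, 126 ± 8.94 for si-2c and 127 ± 3.34 for si-4c but 96.3 ± 5.01 for con-4c. It fell by 0.46 in the control stage contrast (SE 0.08, edgeR adjusted p = 0.000173) and was higher in si-2c than in con-4c by 0.39 (SE 0.08, adjusted p = 0.00417). With library totals the former difference was -0.18 (adjusted p = 0.104). The catalytic subunit POLE, at 2.71 to 7.70 CPM, did not pass in any comparison with TMM factors and all libraries. With library totals it rose by 0.93 (adjusted p = 0.0173) in the control stage contrast and by 0.96 (adjusted p = 0.0140) in the 2c knockdown contrast.

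PCNA, the ring that holds polymerases on DNA, was among the most abundant transcripts of these embryos. PCNA (chr17:14137746-14142584) ranked 4 among all genes in every con-2c and si-4c library, 7 for con-4c and 5 to 6 for si-2c. It measured 29513, 27646 and 21057 CPM for con-2c, 10889, 12056 and 11612 for con-4c, 9677, 11314 and 11501 for si-2c, and 28338, 25770 and 24742 for si-4c. Each con-2c and si-4c library exceeds every con-4c and si-2c library.

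The log2 fold change of PCNA was -1.18 (SE 0.11, edgeR adjusted p = 2.45e-07) in the control stage contrast, -1.27 (SE 0.11, adjusted p = 1.96e-07) in the 2c knockdown contrast and 1.19 (SE 0.11, adjusted p = 2.18e-07) in the 4c knockdown contrast. As a share of all counts, which needs no scaling factor, PCNA took 2.02% to 2.52% in con-2c, 1.19% to 1.27% in con-4c, 1.14% to 1.39% in si-2c and 2.26% to 2.47% in si-4c. With library totals its difference was -0.90 (adjusted p = 1.21e-07) in the control stage contrast. The other 46 genes together took 0.433% to 0.542% of counts in any library. The gap between PCNA and MCM8 on chromosome 17 is 647.8 kb, the only pair of these genes within a megabase, and they moved in opposite directions.

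The clamp loader RFC opens PCNA and sets it on DNA, and its subunits also parted. RFC5 (chr14:34630374-34642598) was 14.4, 16.2 and 12.4 CPM for con-2c, 26.8, 31.7 and 31.6 for con-4c, 20.5, 18.4 and 19.9 for si-2c, and 14.8, 11 and 14.6 for si-4c. It was called higher in the control stage contrast (1.07, SE 0.14, edgeR adjusted p = 1.03e-05) and lower in the 4c knockdown contrast (-1.15, SE 0.14, adjusted p = 4.58e-06). Its con-4c libraries are above all others and its si-2c libraries come next, as for ORC1 and MCM8.

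RFC4 (chr13:124589292-124604421) was 84.6, 74.0 and 74.4 CPM for con-2c and 36.6, 42.9 and 43.5 for con-4c, a fall of 0.92 (SE 0.09, edgeR adjusted p = 7.53e-07). RFC3 fell from 41.3 ± 2.54 to 22.9 ± 3.77 CPM, by 0.85 (SE 0.13, adjusted p = 4.26e-05). Both were higher again in si-4c, at 77.9 ± 5.17 and 42.2 ± 4.03 CPM. RFC1, the large subunit, stayed between 175 and 214 CPM in all libraries, with 0.01 (SE 0.07) in the control stage contrast and 0.29 (adjusted p = 0.00408) there with library totals. In the si stage contrast it rose by 0.21 (SE 0.07, adjusted p = 0.0258), which became -0.17 (adjusted p = 0.0657) with library totals. RFC2 differed by -0.22 (SE 0.11, adjusted p = 0.130) in the control stage contrast. In the si stage contrast it rose by 0.34 (SE 0.11, adjusted p = 0.0265), which turned its sign with library totals.

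RPA coats single-stranded DNA behind the helicase. RPA2 (chr6:85032604-85045899), the subunit phosphorylated in the cell cycle and after damage, was 167, 147 and 130 CPM for con-2c, 71.8, 70.3 and 79.2 for con-4c, 71.4, 85.9 and 97.4 for si-2c, and 170, 162 and 147 for si-4c. High and low groups are free of overlap. Its log2 fold change was -1.0 (SE 0.11, edgeR adjusted p = 2.57e-06) in the control stage contrast, at the limit of the call, and -0.97 by DESeq2. RPA1 and RPA3 fell less in that comparison, by 0.32 (SE 0.11, adjusted p = 0.0273) and 0.31 (SE 0.09, adjusted p = 0.0143). In the 2c knockdown contrast they fell by 0.36 (SE 0.11, adjusted p = 0.0169) and 0.35 (SE 0.09, adjusted p = 0.00821), both of which turned sign with library totals. The differences of both in the control stage contrast were then -0.04 (adjusted p = 0.810 and 0.763).

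The enzymes of Okazaki fragment maturation were thinly sampled. FEN1, the flap nuclease, rose from 5.24 ± 0.816 CPM for con-2c to 7.97 ± 0.473 for con-4c, by 0.60 (SE 0.19, edgeR adjusted p = 0.0199). LIG1, the ligase that seals the nicks, had 95 to 201 counts a library and did not pass (0.32, SE 0.23, adjusted p = 0.315).

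Ratios of raw counts within a library are free of any scaling between libraries, and they show how far the subunits parted. For each 100 counts of RFC4, RFC5 had 17.0, 21.9 and 16.7 for con-2c, 73.2, 73.8 and 72.7 for con-4c, 43.7, 38.4 and 45.4 for si-2c, and 17.9, 15.3 and 18.7 for si-4c. For each 100 counts of ORC6, ORC1 had 4.15 ± 0.283 for con-2c, 20.6 ± 0.653 for con-4c, 9.47 ± 1.27 for si-2c and 3.48 ± 0.218 for si-4c. Groups do not overlap in either ratio, apart from con-2c with si-4c for RFC5. MCM8 per 100 counts of MCM6 was 4.08 ± 1.72, 14.6 ± 1.68, 7.99 ± 1.59 and 4.34 ± 1.68 in the same order of groups. GMNN per 100 counts of CDC6 was 846 ± 185 for con-2c, 332 ± 36.8 for con-4c, 444.5 ± 18.7 for si-2c and 917 ± 180 for si-4c. The pairs were picked after the levels were seen, so no test is given.

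**Figure D3:**
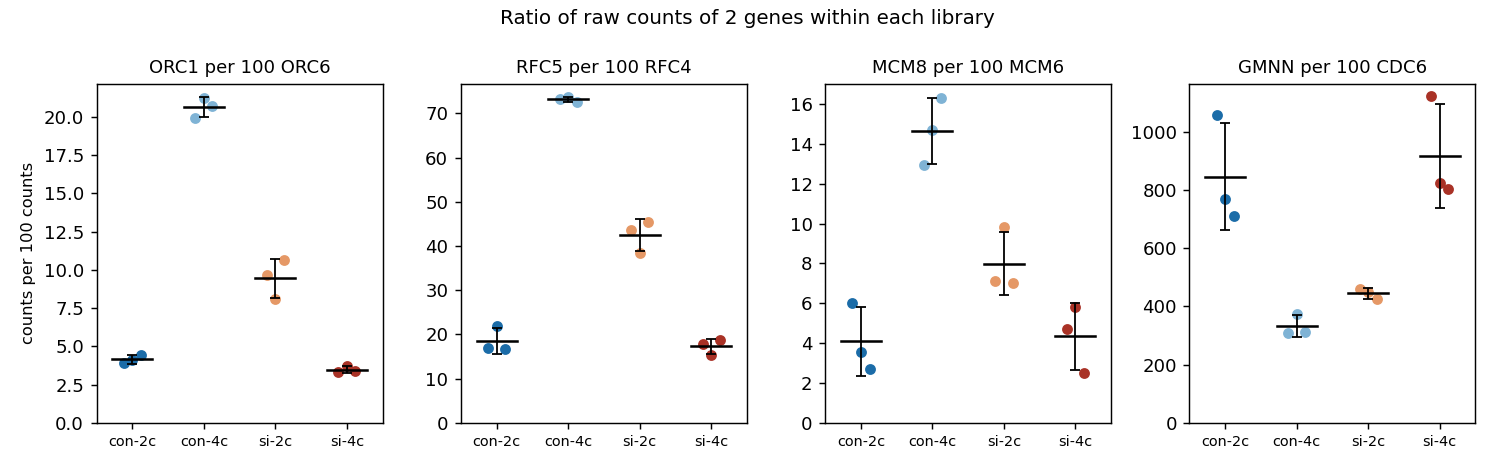
Raw counts of 1 gene per 100 raw counts of another in the same library, for 4 pairs of replication genes; points are libraries, bars are group means and error bars are SD (n = 3), on axes that start at 0. ORC1 per ORC6, RFC5 per RFC4 and MCM8 per MCM6 are highest in con-4c with si-2c next, and GMNN per CDC6 is lowest in con-4c, with con-2c and si-4c overlapping in 3 of the 4 panels.

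The difference between title stages ran in opposite directions in control and si-CCNB2 embryos. In the si stage contrast, ORC5 and PCNA were called higher and none lower, so 2 and 0 of 47, beside 1.47% and 11.9% of all genes. DESeq2 also called 2 higher and 0 lower, and at an unadjusted p below 0.05 edgeR gave 19 higher and 6 lower. With adjusted p alone 18 rose and 6 fell, beside 12.1% and 16.9% of all genes, and among genes of at least 10 CPM 18 and 5 of 36, beside 30.6% and 15.7%. Without si-2c replicate 3 the calls came to 5, with GMNN, POLE2 and RPA2 added, without si-2c replicate 2 to 4, without si-4c replicate 2 to 5, and without si-2c replicate 1 to 1. With library totals the split became 0 higher and 2 lower, ORC1 and MCM8. By adjusted p alone it became 10 higher and 12 lower, 16 of the 24 still passed, and RFC1, RFC2 and RPA3 turned their sign.

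This comparison has no library in common with the control stage contrast. All 26 genes that passed in the controls had the opposite sign in the si stage contrast, and 20 of them passed there too. Of all 6447 genes that passed in the controls, 94.4% had the opposite sign, and so did 77.0% of all genes tested, so the reversal is not particular to replication genes. Over the 47 genes the log2 fold changes of the 2 comparisons had a Pearson r of -0.75, and over all genes tested -0.74, as a description across genes that share libraries.

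**Figure D4:**
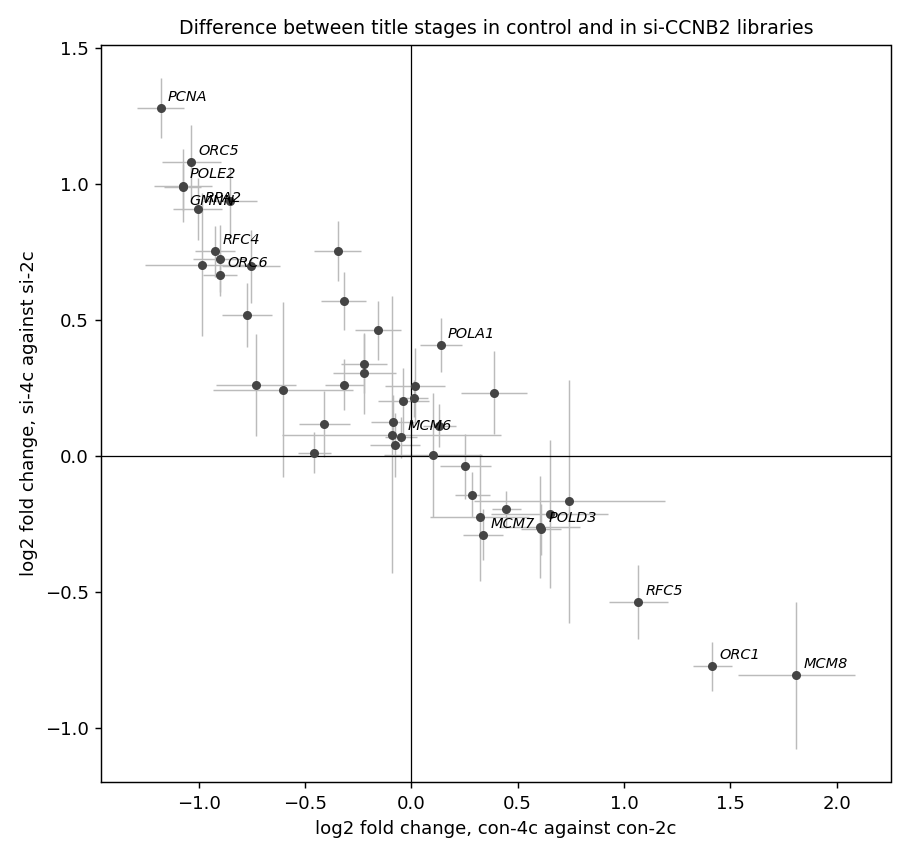
Log2 fold change of the si stage contrast (vertical) on that of the control stage contrast (horizontal) for 45 replication genes, with SE bars; CDT1 and POLD4 are left out for their very low counts. PCNA, ORC5, GMNN and POLE2 lie at the upper left, ORC1, MCM8 and RFC5 at the lower right, and MCM6 near the origin.

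The interaction term tests this difference, as si-4c minus si-2c less con-4c minus con-2c. It called 13 replication genes higher and 3 lower, beside 9.87% and 22.5% of all genes, and with adjusted p alone 20 and 8, beside 18.2% and 27.3%. Among genes of at least 10 CPM, 12 and 2 of 36 replication genes were called, beside 18.9% and 11.3% of all such genes, and 19 and 6 passed adjusted p alone, beside 40.6% and 23.5%. Its largest values were -2.62 for MCM8 (SE 0.38, edgeR adjusted p = 2.85e-05), 2.46 for PCNA (SE 0.16, adjusted p = 1.21e-09) and -2.19 for ORC1 (SE 0.13, adjusted p = 4.52e-10). With library totals the calls split as 8 higher and 10 lower, and adjusted p alone as 13 and 17. ORC3, ORC6, GINS2, PRIM1 and PRIM2 were then no longer called, though each still passed adjusted p, and ORC2, MCM7, MCM10, POLD3, POLE, FEN1 and LIG1 were called lower. GINS4, WDHD1, POLE4, RFC2 and RPA3, which passed with TMM factors, then had the opposite sign. Gained calls were POLE without con-2c replicate 2 (-1.05) or con-4c replicate 2 (-1.11), POLA2 without si-4c replicate 3 (-1.57) and FEN1 without si-4c replicate 2, beside MCM2.

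Read across the title stages, si-4c lay close to con-2c. In the crossed contrast of si-4c less con-2c edgeR called 0 replication genes higher and 0 lower, beside 0.0333% and 0.3% of all genes, and DESeq2 called 0. With adjusted p alone there were also 0 and 0 (DESeq2 0 and 2), beside 0.106% and 0.567%, while at an unadjusted p below 0.05 there were 2 higher and 4 lower. The difference of PCNA was 0.01 (SE 0.11) and that of ORC1 -0.31 (SE 0.09, adjusted p = 0.174). A missed threshold does not show equal levels.

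In the crossed contrast of si-2c less con-4c edgeR and DESeq2 called 0 higher and 0 lower, beside 0.161% and 1.63% of all genes, with 2 higher and 9 lower at an unadjusted p below 0.05. With adjusted p alone 1 rose and 5 fell, beside 2.22% and 5.32%. The gene that rose was POLE4, and those that fell were ORC1 (-0.95, SE 0.09, edgeR adjusted p = 4.99e-06), MCM8 (-0.90, SE 0.26, adjusted p = 0.0462), RFC5 (-0.61, SE 0.13, adjusted p = 0.00886), POLE3 (-0.54, SE 0.12, adjusted p = 0.0102) and POLA1. Without si-2c replicate 3, ORC1 was called at -1.01 and MCM8 no longer passed (-0.87, adjusted p = 0.117). With library totals 3 rose (ORC6, GMNN and POLE4) and 2 fell (ORC1 and RFC5), while MCM8 (adjusted p = 0.0678), POLE3 (0.0808) and POLA1 (0.107) no longer passed. ORC1 and RFC5, highest in con-4c, were thus lower in si-2c under both scalings, whereas MCM7, POLD3 and FEN1, also high in con-4c, differed by -0.05 (SE 0.09), -0.11 (SE 0.09) and -0.11 (SE 0.19), and PCNA, ORC5 and POLE2, which are low in both, differed by -0.09 (SE 0.11), -0.04 (SE 0.14) and -0.01 (SE 0.14).

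Genes that work beside this machinery were counted from 4 lists, and none of the 34 that passed in the control stage contrast turned its sign with library totals or DESeq2. The shares of all genes that rose and fell, for each list below, are 20.7% and 15.1% in the control stage contrast, 16.6% and 12.3% in the 2c knockdown contrast, and 15.1% and 21.7% in the 4c one. With lists this short, counts near these shares are no result about the list. Of 25 accessory replication factors tested, 7 rose and 7 fell there, 3 rose and 6 fell in the 2c knockdown contrast, and 7 rose and 5 fell in the 4c one. DSCC1, of the alternative clamp loader for cohesion, was 134 ± 5.58 CPM for con-2c, 52.9 ± 2.42 for con-4c, 59.5 ± 6.27 for si-2c and 131 ± 5.36 for si-4c, and ATAD5, which unloads PCNA, was 87.8 ± 6.30, 46.7 ± 2.27, 43.8 ± 1.37 and 94.0 ± 2.96. Like PCNA, both were low in con-4c and si-2c, with falls of 1.35 (SE 0.09, edgeR adjusted p = 2.84e-09) and 0.91 (SE 0.08, adjusted p = 1.51e-07) in the control stage contrast. DONSON, which brings GINS to the ring, fell by 0.82 (SE 0.11, adjusted p = 2.05e-05), and KAT7, the acetyltransferase that aids licensing, rose by 0.80 (SE 0.10, adjusted p = 9.34e-06).

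Of 13 genes that control CDT1 or remove the helicase, 4 rose and 2 fell in the control stage contrast, 3 and 2 in the 2c knockdown contrast, and 2 and 5 in the 4c one. VCP, the ATPase that extracts ubiquitylated proteins from chromatin, went from 2.26 ± 0.887 CPM for con-2c to 39.0 ± 0.278 for con-4c, with 20.0 ± 2.25 for si-2c and 2.44 ± 0.206 for si-4c. Its cofactor UFD1 and the CDT1 ubiquitin ligase receptor DTL rose by 1.32 (SE 0.14, edgeR adjusted p = 1.40e-06) and 0.68 (SE 0.08, adjusted p = 4.20e-06). FBXO5, an inhibitor of the anaphase-promoting complex that spares geminin, fell by 0.52 (SE 0.07, adjusted p = 1.01e-05).

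Of 12 nucleotide supply genes tested, 3 rose and 5 fell in the control stage contrast, 1 and 2 in the 2c knockdown contrast, and 5 and 3 in the 4c one. TYMS, which makes thymidylate, was 228 ± 24.3 CPM for con-2c, 83.5 ± 3.52 for con-4c, 100.1 ± 6.76 for si-2c and 245 ± 17.8 for si-4c, without overlap between high and low groups. DUT and DCTD fell by 0.72 (SE 0.09, edgeR adjusted p = 4.99e-06) and 0.68 (SE 0.09, adjusted p = 7.90e-06), and NME1 rose by 2.36 (SE 0.36, adjusted p = 5.42e-05) from a mean below 1 CPM. Of 18 genes of the E2F and DREAM regulators, 2 rose in the control stage contrast, LIN54 by 2.01 (SE 0.17, adjusted p = 7.24e-08) and the repressor E2F7 by 1.86 (SE 0.18, adjusted p = 3.27e-07). The 2c and 4c knockdown contrasts had 3 and 4 that rose and 4 and 3 that fell. Among the 4 that fell in the control stage contrast were LIN37 (-0.90, SE 0.12, adjusted p = 2.19e-05) and LIN52 (-0.47, SE 0.08, adjusted p = 0.000222).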

How the data were processed

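SMART-seq libraries of porcine embryos were analysed from the raw counts per Ensembl gene that the authors deposited, whole numbers without normalization. The submitters' processing notes name cutadapt 1.9, HISAT2 2.2.1, StringTie 2.1.6, DESeq2, edgeR and the build Sscrofa11.1, without their roles. The counting program, annotation release, use of strand and treatment of multi-mapping reads are not given in the sources used here, so counts of near-identical, overlapping or antisense genes are uncertain. Reads carried no molecular identifiers, and the replicate libraries set the precision.

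The tests used edgeR 4.0.16 in R 4.3.3: filterByExpr, TMM factors, and 1 quasi-likelihood model of the 4 group means over all 12 libraries (common dispersion 0.0745). P-values were adjusted by Benjamini-Hochberg over 17995 genes. Each SE came from the F statistic (fold change on the log2 scale over root F). Groups come from the titles. Alternatives were library totals, DESeq2 1.42.0, no filter, no minimum fold, a replicate block, the compared groups alone and each library left out. The fit was tested on simulated counts.

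All 47 genes are accounted for by role. Values per library are given for those with the smallest p among called genes and for a gene that stands against its complex. Those of MCM2, MCM7, MCM10, POLD3, PRIM1, PRIM2, RFC4, CDT1, WDHD1, CDC7 and ORC3 (the last 3 for si-2c alone) lie outside this rule and were chosen after their values were seen. Up to 4 genes of each further list were named by smallest p in con-4c against con-2c. The members and lists were chosen with earlier results of these data known. Positions are from RefSeq (Sscrofa11.1, 47 of 47 matched by symbol). Sequences of promoters or proteins were not used here.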

Additional observations from a re-analysis of the deposited data

Results flagged for a closer look

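For 16 replication genes the difference between title stages was not the same in control and si-CCNB2 embryos, by the edgeR interaction term (si-4c minus si-2c, less con-4c minus con-2c) called as above. That is 13 higher and 3 lower of 47, beside 9.87% and 22.5% of all genes tested. The doubt about the titles given above holds here too. In ORC these were ORC1 at -2.19, ORC3 at 1.10, ORC5 at 2.11 and ORC6 at 1.57. Geminin (GMNN) had 2.06 and MCM8 had -2.62. GINS1 and GINS2 had 1.69 and 1.45, and the primase genes PRIM1 and PRIM2 had 1.29 and 1.63. POLE2 had 2.07 and PCNA 2.46. The clamp loader genes RFC3, RFC4 and RFC5 had 1.79, 1.67 and -1.61, and RPA2 had 1.91. With library totals in place of TMM factors, 18 genes were called, 8 higher and 10 lower, and these are not the same genes. ORC3 (0.44), ORC6 (0.91), GINS2 (0.80), PRIM1 (0.63) and PRIM2 (0.96) lost the call, and ORC2, MCM7, MCM10, POLD3, POLE, FEN1 and LIG1 gained one as lower.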

How the results depend on the processing

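With library totals 3 genes were called in con-4c against con-2c (8 with TMM factors), 1 in si-2c against con-2c (3) and 3 in si-4c against con-4c (8). Without a minimum fold the counts were 26, 24 and 26 in these comparisons, 24 in si-4c against si-2c, 6 in si-2c against con-4c and 28 for the interaction. Leaving out each library in turn gave 1 to 5 calls in si-4c against si-2c and 0 to 1 in si-2c against con-4c. Title numbers do not pair the samples (correlations of -0.05 to 0.03 between same-numbered libraries over 18 pairs), and a replicate block gave 8, 3, 8, 2, 0, 0 and 16 calls in the 7 comparisons, as without it. DESeq2 gave 7, 3, 7, 2, 0, 0 and 16. No called gene changed its direction under any alternative run; genes short of 2-fold that turned with library totals are named above. Calls near 2-fold were lost when single libraries were left out: ORC5, POLE2, RFC5 and RPA2 in con-4c against con-2c, ORC5 and POLE2 in si-2c against con-2c, ORC5 and GINS1 in si-4c against con-4c, ORC5 in si-4c against si-2c and ORC3 in the interaction. Calls were also gained when 1 library was left out: GINS1 (-1.21 and -1.20) and PRIM2 (-1.02) in con-4c against con-2c, MCM8 (1.25 and 1.01) in si-2c against con-2c, PRIM2 (1.05 and 1.01), POLE2 (1.13 and 1.04) and POLA2 (-1.40) in si-4c against con-4c, GMNN, POLE2, RFC3, RPA2 and MCM8 in si-4c against si-2c, ORC1 in si-2c against con-4c, and MCM2, POLA2, POLE and FEN1 in the interaction. Low counts limit CDT1, POLD1 and POLD4. With the compared groups alone RPA2 lost its call in con-4c against con-2c (-0.99), and no fit of the interaction was run. Without the low-count filter MCM2 gained a call in the interaction (1.01). The cause of these shifts was not tested.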
